A study of Homo sapiens with 8 samples.

Results

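Sites found in all 4 immunoprecipitation (IP) libraries of the series are described, that is, stretches of RNA that gave a peak with PTBP1 and with IGF2BP2 in both replicates. A site is a peak of PTBP1 replicate 1, with repeated lines removed, that shared 1 nt or more with a peak of PTBP1 replicate 2 and with a peak of each IGF2BP2 replicate, on the same strand. There were 64223 such sites among the 600615 peaks of PTBP1 replicate 1 (10.7%), and they lay in 9029 genes (49.4% of the genes with a peak in that list). The sites were thus chosen by measured values, their presence in the 4 lists, so that presence, their read numbers and their scores over input are given as descriptions without a test.

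eCLIP, in which RNA crosslinked to a protein is immunoprecipitated with it and sequenced, was run on either protein in A172, an established human glioma cell line. The groups were PTBP1 IP and IGF2BP2 IP (called IMP2 in the labels), with a PTBP1 input and an IGF2BP2 input beside them, 2 samples each, 8 in all. All groups shared the treatment: 500 µM 4-thiouridine for 3 h, then 2 exposures of 400 mJ/cm2 at 365 nm and RNase I, with 2% of the material set aside as input. Gel pieces of 55 to 130 kDa were taken for PTBP1 and of 65 to 140 kDa for IGF2BP2, and libraries of 175 to 350 bp. The labels give each experiment as done 2 times and do not say whether from separate cultures, so p-values measure only the spread between these libraries. The 4 IP peak lists were used.

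PTBP1, the polypyrimidine tract-binding protein 1, binds pyrimidine-rich RNA with its RNA recognition motifs and is known as a repressor of exons in introns next to their splice sites. IGF2BP2, a member of the IGF2 mRNA-binding protein family, binds mature mRNAs mainly in 3′ UTRs through KH domains and is known for effects on their stability, localisation and translation.

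Reference sequence was used for microRNA hairpins and for gene starts, and the sites there are shown because they let the covered stretch be seen beside its values. A covered stretch is where peaks lay and is not by itself a sign of binding. Of 1562 human hairpins in RefSeq (GRCh38.p14), 208 were touched by a peak of PTBP1 replicate 1 and 44 by a site, 21.2% of those with a peak. The site overlapped a mature microRNA in 33 of the 44, and 25 of the 44 sites were annotated as intron. The overlap with the hairpin was 30 nt or more in 14 of the 44 and as little as 5 nt. Capitals mark the bases inside the site, read 5′ to 3′.
MIR8075: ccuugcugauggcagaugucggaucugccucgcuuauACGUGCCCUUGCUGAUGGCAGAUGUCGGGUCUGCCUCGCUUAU
MIR1301: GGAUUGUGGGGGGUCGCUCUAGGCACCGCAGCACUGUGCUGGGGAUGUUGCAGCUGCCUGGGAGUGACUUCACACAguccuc
MIR3651: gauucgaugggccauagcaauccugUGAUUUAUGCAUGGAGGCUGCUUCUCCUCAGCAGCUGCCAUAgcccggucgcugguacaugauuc
MIR374B: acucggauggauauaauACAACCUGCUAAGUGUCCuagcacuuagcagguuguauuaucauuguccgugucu

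The MIR8075 hairpin (chr13:113262920-113262999, plus strand, hg38) lies in an intron of CUL4A, a cullin of a ubiquitin ligase, and is shown because its site was enriched in all 4 lists (a score and a recomputed −log10 p of at least 3). Its score, the log2 of IP over input reads on a scale common to all chromosomes of a library, was 4.00 and 6.01 with PTBP1 and 6.49 and 4.38 with IGF2BP2. These rested on 79 and 68 IP reads with PTBP1 and on 27 and 39 with IGF2BP2. All 4 libraries were high and the ranges of the proteins overlapped. The site covered the 3′ part of the hairpin, bases 38 to 80, with its mature microRNA.

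MIR1301 (chr2:25328640-25328721, minus strand) sits in an intron of DNMT3A, a DNA methyltransferase, and bases 1 to 76 of its 82 lay inside a site. Its scores were 1.08 and 1.38 with PTBP1 and 1.74 and 3.23 with IGF2BP2, on 13, 11, 3 and 5 IP reads. MIR3651 (chr9:92292458-92292547, minus strand) lies in an intron of IARS1, an isoleucyl-tRNA synthetase, and is shown as a hairpin site with a higher score in PTBP1. It scored 4.38 and 4.11 with PTBP1, on 206 and 146 IP reads, and 2.00 and 2.56 with IGF2BP2, on 6 and 11 IP reads. The proteins did not overlap there, and the difference after centring was 2.56 ± 0.64 (log2, SE; limma, adjusted p = 0.032).

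MIR374B (chrX:74218547-74218618, minus strand), in an intron of the non-coding gene FTX, shows the other direction. Its scores were 0.11 and -0.08 with PTBP1 and 2.74 and 2.64 with IGF2BP2, a difference of -2.08 ± 0.47 (limma, adjusted p = 0.025). The IGF2BP2 scores rested on only 6 and 5 IP reads over 3 input reads in each list. The PTBP1 reads were not recovered. Bases 18 to 35, inside the hairpin arm of miR-374b-5p, were covered by the site. Both differences come from a limma test between the proteins, in which each library was centred at its median site and p-values were adjusted over all peaks tested. Of the 44 hairpin sites, 5 had a higher score in PTBP1 and 6 in IGF2BP2, where 9.73% and 9.05% of all peaks tested did. Members of the repeated MIR941 and MIR6724 families are near-identical copies, and reads could be split between them.

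Gene starts gave another window. Of 35116 RefSeq gene starts (GRCh38.p14), 926 had a site in the 50 nt after the start. The covered stretch is given for genes whose site passed the test between the proteins in either direction, all lower case because every base lies inside the site.
TUBA1B: ttgtcggggacggtaaccgggac
ID2: agcccggtgccaagcgcagctagctcag
KTN1: ggcacctgagcgactgcg
PLEKHA3: ggggtcaatgaaaacaaacggggagcc

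TUBA1B, an alpha-tubulin, carried its stretch in the 5′ UTR (chr12:49131346-49131368, minus strand). Its scores were -0.30 and -0.24 with PTBP1 and 3.74 and 4.94 with IGF2BP2, on 43, 41, 40 and 41 IP reads, so that the read numbers were alike while the scores did not overlap. The difference was -4.02 (limma, adjusted p = 0.00736). Tubulin genes have close copies. ID2, an inhibitor of basic helix-loop-helix factors (5′ UTR, chr2:8682067-8682094, plus strand), had scores of 0.59 and -0.15 with PTBP1 and 3.49 and 2.94 with IGF2BP2.

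KTN1, which encodes kinectin (5′ UTR, chr14:55580239-55580256, plus strand), scored 0.68 and 1.08 with PTBP1 against -1.17 and -0.94 with IGF2BP2 (difference 2.53, limma, adjusted p = 0.00623). PLEKHA3, a phosphoinositide-binding protein of the Golgi (5′ UTR, chr2:178480480-178480506, plus strand), scored 1.64 and 1.99 with PTBP1 against 0.32 and 0.90 with IGF2BP2 (difference 1.80, limma, adjusted p = 0.040). Among the 926 sites, 11.4% had a higher score in PTBP1 and 9.40% in IGF2BP2. These shares were near the 12.1% and 11.5% of all sites tested and the 9.73% and 9.05% of all peaks tested. The 50-nt windows with a site held 68.8% G or C and 16.9% T, against 59.2% and 20.2% over all gene starts. Windows with peaks of both PTBP1 lists only held 65.8% G or C and 17.3% T, and those with peaks of both IGF2BP2 lists only 71.9% and 14.9%, and the site windows lay between these. The motif TCTT was in 12.5% of windows with a site and in 16.0% of all, CACA in 6.80% and 16.0%, and GGAC in 21.3% and 18.9% (searched on the transcript strand). In the PTBP1-only windows they were in 12.3%, 8.04% and 20.5%, and in the IGF2BP2-only windows in 8.51%, 7.33% and 19.8%, so PTBP1-only windows had nearly the same values as windows with a site. The windows give no view of the introns, where most sites lay.

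Reads per peak differed between the lists, and the median site had more reads than the median other peak in each. The lists of PTBP1 replicates 1 and 2 held 600615 and 538802 peaks, those of IGF2BP2 362700 and 341305, with a median of 12, 9, 4 and 4 IP reads per peak. Total reads per library are unknown. Anchored on each list in turn, 64223, 62931, 63770 and 63706 of its peaks overlapped a peak of each other list, 10.7% and 11.7% for PTBP1 and 17.6% and 18.7% for IGF2BP2. Read numbers were recovered for 66.7% and 67.1% of these sites in the PTBP1 lists and for 75.1% and 75.5% in the IGF2BP2 lists. The median site had 46 and 35 IP reads with PTBP1, against 10 and 8 in the other peaks. With IGF2BP2 it had 9 and 8, against 4 in the other peaks of both lists. Median length was 50 and 48 nt with PTBP1, against 38 and 36 nt in the other peaks, and 32 and 31 nt with IGF2BP2, against 18 and 17 nt.

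The share of peaks that were sites was larger at more reads in every list, up to 50 to 99 reads. Of PTBP1 replicate 1 peaks with 3 IP reads 0.134% were sites (95% Wilson interval 0.105 to 0.171%), of those with 10 to 19 reads 6.07% (5.92 to 6.22%) and of those with 100 or more 41.7% (41.0 to 42.3%). In IGF2BP2 replicate 1 the shares were 4.14% (4.02 to 4.26%), 39.1% (38.6 to 39.6%) and 74.9% (72.3 to 77.4%). The intervals cover counting error only. At a given read number, an IGF2BP2 peak was thus a site more often than a PTBP1 peak.

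Transcript region split this further, and in opposite ways for the proteins. Among peaks of 20 to 49 reads, 26.7% and 34.0% of PTBP1 peaks in 3′ UTRs were sites, against 8.63% and 11.9% of those in coding sequence. In the IGF2BP2 lists 45.8% and 49.3% of such 3′ UTR peaks were sites, against 57.4% and 59.4% in coding sequence. Both lists of each protein showed the same order.

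**Figure D1:**
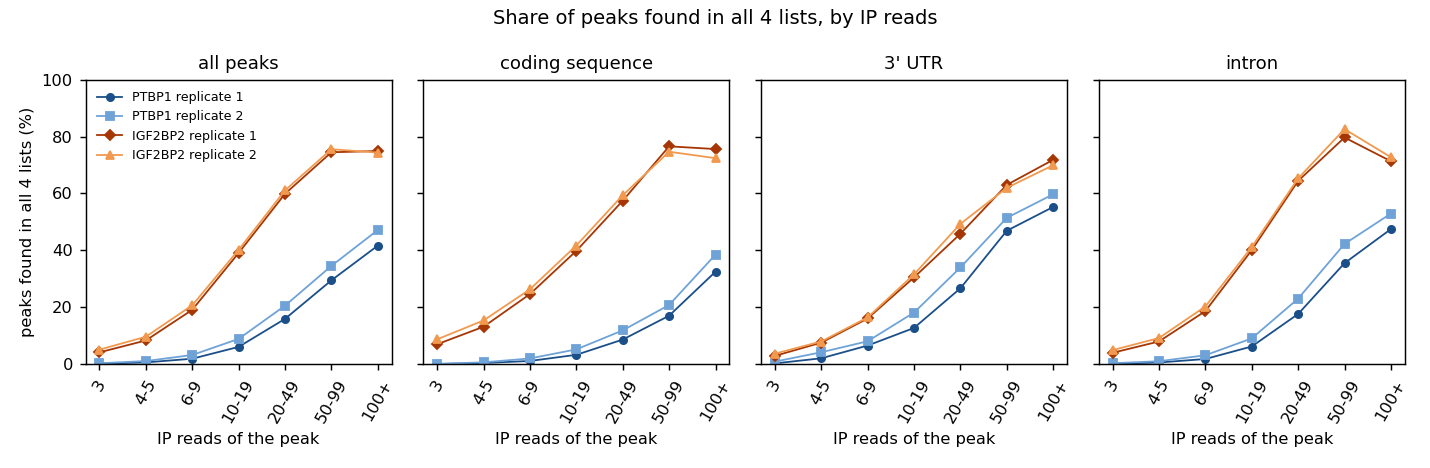
Share of a list's peaks that overlap a peak of each other list (y axis, %) by the IP reads of the peak (x axis, classes of reads), for all peaks and for 3 transcript regions, with 1 line per library. For all peaks, the shares climb up to 50 to 99 reads in every list; at 20 to 49 reads the PTBP1 shares are 26.7% and 34.0% in the 3′ UTR and 8.63% and 11.9% in coding sequence.

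A threshold of 1 nt decided few sites. In 641 sites (0.998%) the smallest of the 3 overlaps was 1 nt, and in 4487 (6.99%) at most 5 nt. The median of the smallest overlap was 21 nt. Just outside the rule, 71708 peaks of PTBP1 replicate 1 missed a single list, and in 552 of them a peak of that list abutted without overlap. Sites share peaks: the 64223 sites were matched by 61805 different peaks of PTBP1 replicate 2 and by 60746 and 60606 of IGF2BP2 replicates 1 and 2. Joining abutting sites left 57928 runs. The transcript region of the matched peak was the same in 99.8 to 99.9% of sites. A peak on the opposite strand of the same list overlapped 15.4%, 15.2%, 15.2% and 15.3% of the sites, against 11.0%, 11.1%, 9.73% and 9.73% of the other peaks. The part of such mirrored peaks in the results was not tested beyond leaving them out.

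Sites lay in introns less often, and in exons more often, than the other peaks of the same lists. Introns held 65.6%, 65.8%, 66.9% and 66.9% of sites in the 4 lists, against 75.04%, 74.6%, 76.3% and 76.0% of other peaks. Coding sequence held 15.9% and 15.7% of sites in the PTBP1 lists, against 12.9% and 13.2% of other peaks, and 14.5% of sites in both IGF2BP2 lists, against 8.05% and 8.03%. All 4 lists were on the same side for every region. Regions are those of the deposited annotation and were not checked. It placed 174 of 176 sites of RNA28SN5, a ribosomal RNA gene, and 155 of 159 sites of AHNAK in introns.

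The 3′ UTR, the usual binding region of IGF2BP2, set the lists apart in the other way. It held 7.20% and 7.28% of PTBP1 sites, against 2.65% and 2.76% of other PTBP1 peaks. In the IGF2BP2 lists the values were 7.47% and 7.41%, against 6.42% and 6.66%. Over the 4 lists the difference of sites minus other peaks was -9.20 ± 0.285 percentage points for introns, 4.57 ± 2.19 for coding sequence, 2.72 ± 2.10 for 3′ UTRs, 1.43 ± 0.174 for 5′ UTRs, 1.40 ± 0.0925 for exons of non-coding transcripts and -0.92 ± 0.272 for intergenic peaks (SD, n = 4). Each had a two-sided exact permutation p = 0.13, the smallest that 4 lists allow, and because the same sites enter all lists they are not independent.

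Read number moved with these shares. Among peaks with recovered reads of any number (added once the data were seen) the mean differences were -7.26 points for introns, 3.61 for coding sequence and 2.57 for 3′ UTRs, on the same side as over all peaks in all 4 lists. Among peaks of at least 10 recovered IP reads the mean differences had the other sign: 1.48 points for introns (all 4 lists positive), -2.40 for coding sequence and -0.71 for 3′ UTRs. The proteins then went apart. Coding sequence was -4.80 and -5.94 points in the PTBP1 lists and 0.45 and 0.67 in the IGF2BP2 lists, and 3′ UTRs 2.75 and 2.82 in the PTBP1 lists and -4.26 and -4.15 in the IGF2BP2 lists. The direction over all peaks thus did not hold with that minimum for introns in any list, for coding sequence in the PTBP1 lists and for 3′ UTRs in the IGF2BP2 lists.

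**Figure D2:**
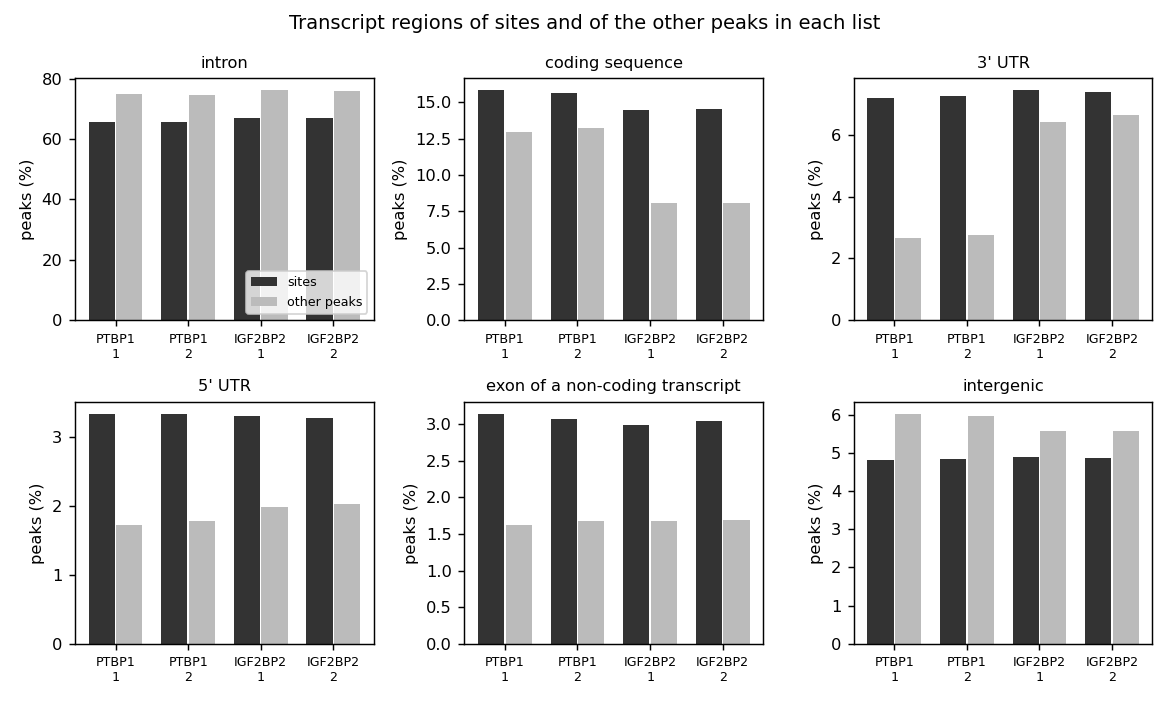
Share of sites (dark bars, left of each pair) and of the other peaks (light bars) of each list in 6 transcript regions (y axis, % of peaks; x axis, protein and replicate). Introns hold a smaller share of sites than of other peaks in all 4 lists, and the 3′ UTR bars differ most in the PTBP1 lists.

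More intron sites than other intron peaks lay close to a gene start. Within 1 kb downstream of the RefSeq start of their gene lay 8.87%, 8.80%, 8.71% and 8.71% of intron sites, against 4.71%, 5.08%, 7.38% and 7.41% of the other intron peaks. The difference was 2.63 ± 1.52 percentage points (SD, n = 4; two-sided exact permutation p = 0.13, the smallest possible). Among peaks of at least 10 reads it stayed positive in the PTBP1 lists (9.13% and 8.96%, against 6.58% and 6.97%) and turned in the IGF2BP2 lists (10.7% and 10.9%, against 13.9% and 13.4%). The median distance was 23.8 and 23.9 kb for sites in the PTBP1 lists, against 36.7 and 35.8 kb for other peaks, but 24.4 and 24.5 kb in the IGF2BP2 lists, against 23.6 and 23.2 kb. Only intron peaks with a matched gene entered, 71.5 to 72.1% of each list.

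Of 18276 genes with a peak in PTBP1 replicate 1, 9029 held a site (49.4%). A single site was found in 2568 of them, 10 or more in 1410 and 100 or more in 43, and the 100 genes with the most sites held 20.5% of all sites. The other 3098 sites were intergenic. The most sites were in LOC100507412, a non-coding gene on chromosome 21, with 384, followed by VAV2 (370), SEPTIN9 (356), DIP2C (350), COL18A1 (321), ZMIZ1 (320), GLI2 (302), TRIO (297), KCNMA1 (289) and LDLRAD4 (273). VAV2 and TRIO are guanine nucleotide exchange factors of small GTPases, SEPTIN9 a cytoskeletal GTPase, COL18A1 a basement membrane collagen, GLI2 a Hedgehog transcription factor and KCNMA1 a calcium-gated potassium channel. In these 10 genes introns held most sites, for example 361 of 370 in VAV2 and 341 of 356 in SEPTIN9. TRIO had 44 sites in coding sequence beside 252 in introns.

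A different set led when sites were set against the gene's own peaks. Among genes with at least 30 peaks, where the median share was 6.67%, every one of the 39 peaks of RNU1-1, the U1 spliceosomal RNA, was a site. MALAT1, a nuclear-speckle RNA, followed with 49 of 53 and HNRNPA2B1, an hnRNP protein, with 25 of 30. RNA45SN1, a ribosomal RNA precursor, had 43 of 57 (75.4%), LOC100507412 74.0% and NEAT1, the RNA of paraspeckles, 55 of 75. AHNAK, a giant scaffold protein, had 159 of 240, TPM1, a tropomyosin, 62 of 94, MIRLET7BHG, a let-7 host gene, 145 of 225 and RNA28SN5, a 28S ribosomal RNA, 176 of 277. U1 and ribosomal RNA genes have near-identical copies, so which copy the reads came from is uncertain. Of the 39 RNU1-1 sites 16 were overlapped by a peak on the opposite strand.

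By gene type, structured RNAs stood highest. Sites were 64 of 74 peaks in snRNA genes, 223 of 341 in rRNA genes, 19 of 20 in scRNA genes, 5 of 6 each in the RNase MRP and RNase P RNAs and 3 of 3 in vault RNAs. In protein-coding genes 10.52% of peaks were sites, in long non-coding RNAs 12.6% and in transcribed pseudogenes 17.3%. Protein-coding genes still held 89.1% of the sites in genes. By chromosome the share was highest on chromosome 21 (21.1%) and lowest on chromosome 15 (7.73%).

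Gene lists for the known functions of the proteins and for glioma cells were counted against the 49.4% of all genes. All 32 cytoskeleton genes with a peak held a site, as did 26 of 27 hnRNP and SR protein genes, 21 of 22 known PTBP1 targets, 15 of 16 translation factors and 15 of 16 abundant non-coding RNAs. The 6 PTBP and IGF2BP family genes held sites too, among them PTBP1 itself with 14 tested and IGF2BP2 with 9. Chaperones had 16 of 18, glycolysis 12 of 15, the extracellular matrix 19 of 25 and ribosomal proteins 18 of 26. Known IGF2BP targets had 14 of 23: IGF2, H19, HMGA2 and NRAS were among the 9 without a site. All lists were above the share over all genes, and abundant or long genes have more peaks, which these counts do not allow for.

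Markers of the cell line and of other cell types were counted as well. Of 14 glioma and astroglial markers 10 had a peak and 6 a site, among them EGFR with 79 sites, CD44 with 27, SOX9 and VIM with 14 each and NES with 6. CHI3L1, GFAP, PDGFRA and TNC had peaks but no site, and SOX2, S100B, FABP7 and CDKN2A no peak. Of neuronal markers only TUBB3 held sites, 27, and MAP2, RBFOX3, SNAP25 and SYP none. MBP and OLIG2 of oligodendrocytes and PTPRC of blood held none, while the epithelial KRT8, KRT18 and CDH1 held 17, 6 and 1. The epithelial EPCAM and KRT19 had peaks but no site. Of markers with a peak, 60% of the glioma and astroglial ones and 60% of the epithelial ones held a site. These counts thus do not tell the cell type. A peak is a sign of reads and no measure of expression.

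Most sites were not enriched over input. The median score was 0.50 and 0.51 with PTBP1, against 1.02 and 1.15 in the other peaks, and 1.15 and 1.20 with IGF2BP2, against 2.32 and 2.49. Enriched sites made up 2.78% and 2.86% with PTBP1, where 2.91% and 2.81% of all peaks passed, and 8.45% and 8.43% with IGF2BP2, where 9.19% and 9.35% did. A score of 0 was not reached by 32.8% and 32.7% of sites with PTBP1 and by 21.2% in both lists with IGF2BP2. In no list enriched were 54916 sites (85.5%).

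Scores were alike between replicates and less so between proteins. Over 64106 sites with 4 scores, Pearson's r was 0.87 between the PTBP1 replicates, 0.83 between the IGF2BP2 replicates and 0.43 to 0.44 between the proteins. Each score shares its site's position, and matched peaks are shared by some sites.

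Both PTBP1 lists were enriched at 1103 sites in 547 genes, of which 30.9% lay in coding sequence and 4.81% in 3′ UTRs. Both IGF2BP2 lists were enriched at 2498 sites in 1310 genes, of which 8.85% lay in coding sequence and 25.3% in 3′ UTRs. All 4 lists were enriched at 194 sites in 105 genes: 111 sites in introns, 28 in coding sequence, 23 in 3′ UTRs and 10 in exons of non-coding transcripts. Of these 194 sites 24.2% were mirrored on the opposite strand, against 15.4% of all sites.

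AHNAK held 18 of the 194 sites, the most of any gene, and of its 159 sites 60 were enriched in both PTBP1 lists and 20 in both IGF2BP2 lists. By the lowest of the 4 scores 3 abutting AHNAK sites that share their IGF2BP2 peaks were tied at the top. The longest was a site of 36 nt annotated as intron, at chr11:62527920-62527955 (minus strand). It had scores of 7.17 and 5.68 with PTBP1 and 5.45 and 7.21 with IGF2BP2, on 92 and 79 IP reads with IGF2BP2. Its PTBP1 read numbers could not be recovered. MMP25, a membrane-type matrix metalloproteinase, followed with 7 sites, 15 of its 16 sites being mirrored, then DCBLD2, a transmembrane receptor, with 5, and the non-coding MIR4435-2HG and LMO7, a LIM domain protein of cell junctions, with 4 each. IPO9-AS1, BRD1, CDC42SE1, SCD and MYADM had 3 each. Mirrored too were 143 of 155 sites of IPO9-AS1, 16 of 23 of CDC42SE1 and 8 of 10 of MYADM. In MIR4435-2HG 107 of 266 were mirrored, in DCBLD2 31 of 103 and in AHNAK 12 of 159. LMO7, BRD1 and SCD had 0 mirrored sites. SCD is the stearoyl-CoA desaturase that makes monounsaturated fatty acids.

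Among other sites enriched in all lists, a coding-sequence site of MAP1B, a microtubule-associated protein (chr5:72198885-72198997, plus strand), scored 4.15 and 4.62 with PTBP1 on 502 and 390 IP reads and 4.30 and 4.28 with IGF2BP2 on 59 and 57. A 3′ UTR site of TRAM2 (chr6:52502937-52502991, minus strand) scored 5.16 and 4.13 with PTBP1 on 221 and 185 IP reads and 4.20 and 5.23 with IGF2BP2 on 22 and 30. In both genes the ranges of the proteins overlapped. Both sites were picked with their values known.

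The sites with the most reads were ranked by the lowest read number over the lists. Only the 28953 sites (45.1%) with recovered reads in every list could enter, which leaves out sites whose −log10 p was 0 or at the limit of 400, so the scores in this ranking are bounded by that choice. The top one was a 53-nt intron site of UNC45B, a myosin chaperone gene (chr17:35151117-35151169, plus strand), with 3909 and 2548 IP reads with PTBP1 and 1012 and 929 with IGF2BP2. Input reads there were 1853 and 1748, and 1622 and 1674, giving scores of 0.77 and 0.47 with PTBP1 and 1.06 in both IGF2BP2 lists. EHMT1, a histone methyltransferase, NEAT1, ACTB in coding sequence, PKD1P1, MIRLET7BHG, FAM239B, SQSTM1 and DCBLD2 in its 5′ UTR followed, with scores of -0.05 to 1.20 with PTBP1 and 0.48 to 1.75 with IGF2BP2. None of these 9 sites, UNC45B included, passed the test between the proteins (limma, adjusted p of 0.271 to 0.833). PKD1P1, FAM239B and ACTB have near-identical copies or pseudogenes.

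TPM1 was the tenth, at an intron site of 36 nt (chr15:63044342-63044377, plus strand). TPM1 is a textbook target whose alternative exons PTBP1 represses. It had 2456 and 1995 IP reads with PTBP1 and 189 and 195 with IGF2BP2, with scores of 1.30 and 1.22 with PTBP1 and 0.08 and 0.22 with IGF2BP2. The proteins did not overlap, and the difference was 1.71 ± 0.40 (limma, adjusted p = 0.027).

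Which protein scored higher was not used to choose the sites and could be tested. The limma test covered 135764 peaks with a score in at least 3 of the 4 lists, centred at 0.50 and 0.51 for PTBP1 and at 1.08 and 1.13 for IGF2BP2, with Benjamini-Hochberg adjustment. Of 64106 sites tested, 7754 (12.1%) had a higher score in PTBP1 and 7362 (11.5%) in IGF2BP2 at an adjusted p under 0.05, against 9.73% and 9.05% of all peaks tested. All peaks tested include the sites. Of the 71658 tested peaks that were no sites, 7.61% were higher in PTBP1 and 6.88% in IGF2BP2. Those peaks had 3 scores and the sites 4, so the test had unlike power and these shares cannot be set against each other. The median difference over the sites was -0.12. Centring sets that middle: without it 5100 sites were higher in PTBP1 and 14887 in IGF2BP2. Without PTBP1 replicate 1 the counts were 4710 and 3258, and without PTBP1 replicate 2 the count higher in IGF2BP2 was 3377. A score is relative to the input of its own protein, so a difference can come from either IP or input.

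Coding sequence and 3′ UTRs went opposite ways. In coding sequence the median score was 0.70 and 0.69 with PTBP1 and 0.32 and 0.39 with IGF2BP2, and 35.0% of 10187 sites were higher in PTBP1 against 6.27% higher in IGF2BP2 (median difference 0.91). In 3′ UTRs the median score was 0.06 and 0.05 with PTBP1 and 1.74 and 1.76 with IGF2BP2, and 2.83% of 4624 sites were higher in PTBP1 against 33.1% in IGF2BP2 (median difference -1.14). Replicates were nearly equal, and the proteins' medians did not overlap in either region. The 6.27% higher in IGF2BP2 in coding sequence was 13.2% without centring, 2.33% without PTBP1 replicate 1 and 2.20% without PTBP1 replicate 2. The 33.1% was 15.1% without PTBP1 replicate 1 and 15.4% without PTBP1 replicate 2.

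Other regions were more even. Of 42101 intron sites 7.45% were higher in PTBP1 and 10.01% in IGF2BP2, of 2141 5′ UTR sites 11.4% and 12.5%, of 1995 sites in exons of non-coding transcripts 14.1% and 15.8%, and of 3058 intergenic sites 12.9% and 12.8%. Without centring, more sites were higher in IGF2BP2 than in PTBP1 in each of these 4 regions. The same split was seen in tested peaks that were no sites: 24.0% of those in coding sequence were higher in PTBP1 and 2.14% in IGF2BP2, and 2.41% and 15.1% of those in 3′ UTRs. Among sites with at least 10 recovered reads in 3 or more lists the share of coding-sequence sites higher in PTBP1 was 19.1% of 2501, against 10.5% higher in IGF2BP2. That of 3′ UTR sites was 3.06% higher in PTBP1 and 30.02% higher in IGF2BP2, of 1632. Reads were recovered only where the deposited log2 was not negative, so peaks with a negative value cannot count toward this minimum. IGF2BP2 peaks with more input than IP reads can still count, as at UNC45B (1012 IP and 1622 input reads in IGF2BP2 replicate 1).

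**Figure D3:**
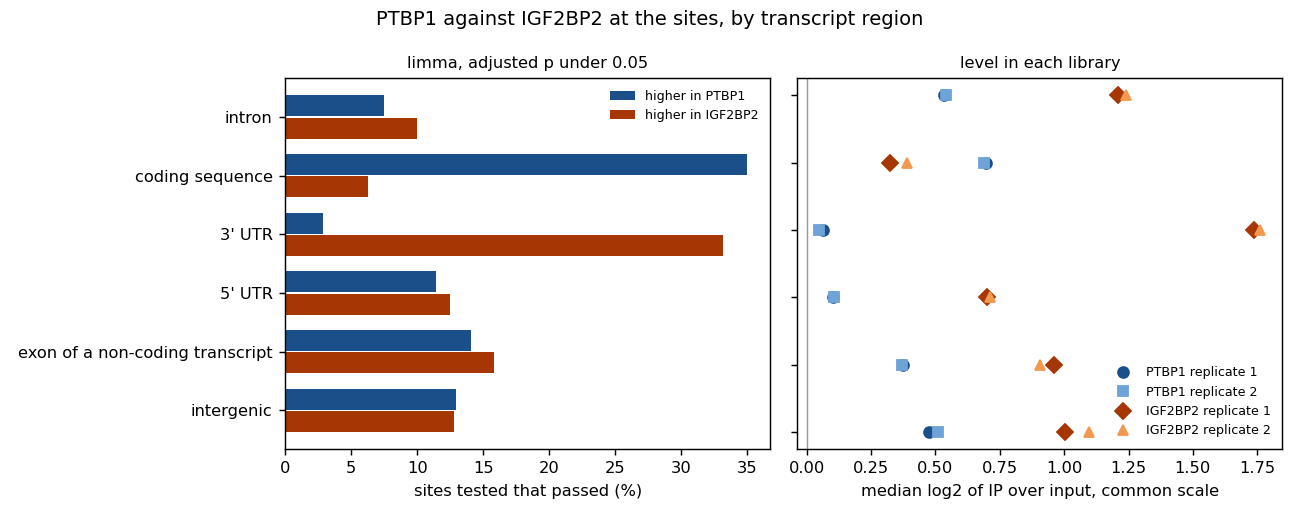
Sites that passed the limma test, as a share of the sites tested in each transcript region (left, x axis in %), and the median score in each library (right, x axis in log2 of IP over input). Among sites that passed, those in coding sequence were mostly higher in PTBP1 (35.0% of the sites tested, against 6.27% higher in IGF2BP2) and those in 3′ UTRs in IGF2BP2 (33.1%, against 2.83% higher in PTBP1).

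Gene lists were split by region in the same way, and each is set beside all sites tested (12.1% higher in PTBP1 and 11.5% in IGF2BP2) and all coding-sequence sites (35.0% and 6.27%). Of 253 sites in hnRNP and SR protein genes 121 were higher in PTBP1 (47.8%) and 11 in IGF2BP2 (4.35%), with a median score of 1.09 and 1.21 with PTBP1 and 0.15 and 0.07 with IGF2BP2. In their coding sequence 103 of 147 were higher in PTBP1 (70.1%, against 35.0% of all coding-sequence sites), and in their introns 7 of 76 in each direction. NCL, which encodes nucleolin, had all 21 sites higher in PTBP1, with a median score of 2.04 and 2.03 with PTBP1 and -1.38 and -0.97 with IGF2BP2. NCL had 13 peaks in each IGF2BP2 list, so some of its sites share an IGF2BP2 score and are not independent. HNRNPA2B1 had 18 of 25 higher in PTBP1 and SRRM2 14 of 43, with none higher in IGF2BP2. The IGF2BP2 lists held 21 and 13 peaks of HNRNPA2B1, fewer than its sites.

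Cytoskeleton genes gave 290 of 790 sites higher in PTBP1 and 53 in IGF2BP2 (36.7% and 6.71%, against 12.1% and 11.5% of all sites). In coding sequence 228 of 361 were higher in PTBP1 (63.2%, against 35.0% of all coding-sequence sites). Their 32 sites in 3′ UTRs went the other way, with 1 higher in PTBP1 and 20 in IGF2BP2 (62.5%, against 33.1% of all 3′ UTR sites). TPM1 had 31 of 62 sites higher in PTBP1 and 0 higher in IGF2BP2. For ACTN4, an actinin, the counts were 8 and 3 of 68, and for the linker protein gene DST 12 and 4 of 62; without centring these were 5 and 8, and 7 and 11, so the order turned.

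Known PTBP1 targets, taken from the literature on splicing, had 144 of 384 sites higher in PTBP1 and 12 in IGF2BP2 (37.5% and 3.12%, against 12.1% and 11.5% of all sites). Their introns, where the protein is known to act on splicing, had 36 of 216 higher in PTBP1 (16.7%) and 8 in IGF2BP2. This is above the 7.45% of all intron sites higher in PTBP1, a comparison given without a test. Without centring the intron counts were 20 and 22, so their order turned. FLNA had 33 of 44 sites higher in PTBP1 and ACTN1 10 of 41, against 0 and 2 higher in IGF2BP2.

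Translation factors had 72 of 177 sites higher in PTBP1 and 17 in IGF2BP2 (40.7% and 9.60%, against 12.1% and 11.5% of all sites). In coding sequence 57 of 82 were higher in PTBP1 (69.5%, against 35.0% of all coding-sequence sites). EIF3A, the largest subunit of the initiation factor eIF3, had all 25 higher in PTBP1, with a median score of 2.19 and 1.99 with PTBP1 and -0.63 and -1.16 with IGF2BP2. Of the 13 sites in 3′ UTRs of these genes none was higher in PTBP1 and 9 were higher in IGF2BP2 (69.2%, against 33.1% of all 3′ UTR sites). EIF4G1, the scaffold of the cap-binding complex, had 18 of 39 higher in PTBP1 and 1 in IGF2BP2.

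Ribosomal protein genes had 27 of 76 sites higher in PTBP1 and 4 in IGF2BP2 (35.5% and 5.26%, against 12.1% and 11.5% of all sites), and RPL4 had 8 of 10. In coding sequence 24 of their 39 sites were higher in PTBP1 (61.5%, against 35.0% of all coding-sequence sites). The list of IGF2BP2 replicate 2 held 6 peaks of RPL4, fewer than its sites. Extracellular matrix genes had 173 of 556 and 30 (31.1% and 5.396%), and in coding sequence 125 of 175 higher in PTBP1 (71.4%), with COL5A1, a fibrillar collagen, at 81 of 264 and 1. Chaperones had 31 of 66 and 5 (47.0% and 7.58%), and in coding sequence 28 of 40 higher in PTBP1 (70.0%), with HSP90AB1, a cytosolic HSP90, at 7 of 10 and 0. Among 19 chaperone sites kept by a minimum of 10 recovered reads 3 were higher in PTBP1 and 4 in IGF2BP2, a subset that leaves out sites depleted or at the limit of the deposited p in most lists. Glycolysis genes had 12 of 108 and 9 (11.1% and 8.33%, near the 12.1% and 11.5% of all sites), but 8 and 22 without centring.

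Known IGF2BP targets went toward IGF2BP2, with 14 of 138 sites higher in PTBP1 and 36 in IGF2BP2 (10.1% and 26.1%, against 12.1% and 11.5% of all sites). In their 3′ UTRs the median score was -1.27 and -1.14 with PTBP1 and 2.51 and 2.90 with IGF2BP2, and 24 of 29 sites were higher in IGF2BP2 (82.8%, against 33.1% of all 3′ UTR sites) and none in PTBP1. CDK6, a cell-cycle kinase, had 0 of 20 sites higher in PTBP1 and 5 in IGF2BP2, and IGF1R, the receptor of insulin-like growth factor 1, 1 and 6 of 25. CD44, an adhesion receptor, went the other way with 7 and 2 of 27. ACTB, whose mRNA IGF2BP proteins are known to bind, had 1 and 1 of 20. Among 35 sites kept by a minimum of 10 recovered reads 7 were higher in PTBP1 and 5 in IGF2BP2. That minimum drops peaks with a negative deposited log2, so the order there cannot be read as one of depth.

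**Figure D4:**
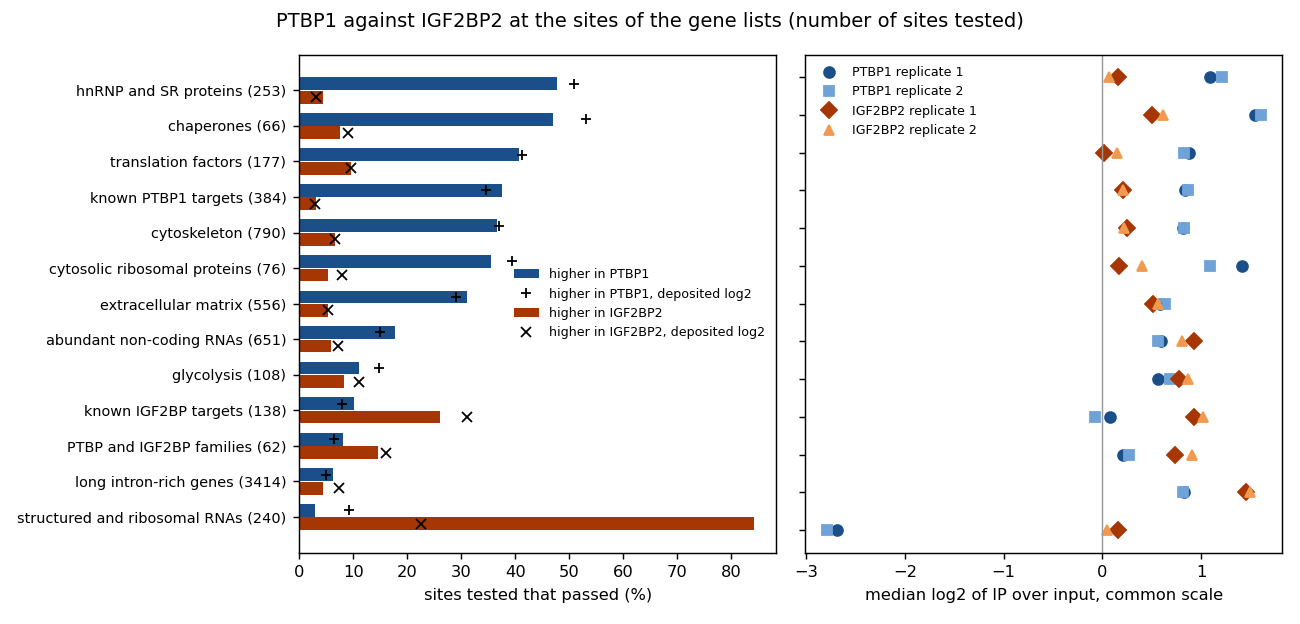
Sites of each gene list that passed the limma test in either direction (left, x axis in % of sites tested; bars on the common scale, crosses with the deposited log2), and the median score in each library (right, x axis in log2 of IP over input). Most coding gene lists lean to PTBP1, the known IGF2BP targets to IGF2BP2, and the bar of structured and ribosomal RNAs (84.2%) drops to 22.5% with the deposited log2.

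Abundant non-coding RNAs had 116 of 651 sites higher in PTBP1 and 39 in IGF2BP2 (17.8% and 5.99%, against 12.1% and 11.5% of all sites), but 74 and 85 without centring. MALAT1 had 43 of 49 sites higher in PTBP1 and 2 in IGF2BP2, with a median score of 0.56 and 0.62 with PTBP1 and -0.70 and -0.40 with IGF2BP2. MALAT1 had only 20 and 21 peaks in the IGF2BP2 lists, so many of its sites share an IGF2BP2 score and are not independent. NEAT1, its neighbour on chromosome 11, had 3 and 5 of 55. Long intron-rich genes had 212 of 3414 and 148, but 173 and 254 with the deposited log2 and 112 and 505 without centring. The order of this list depended on the scale, and both shares were below those of all sites.

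Structured and ribosomal RNAs scored low with PTBP1. Of 240 sites 7 were higher in PTBP1 and 202 in IGF2BP2 (84.2%) on the common scale, but 22 and 54 with the deposited log2. The gap comes from chromosome 21, whose scores were moved more in the PTBP1 lists when placed on the common scale: its constant was 2.36 and 2.55 in the PTBP1 lists, where the common one was -0.30 and -0.08, and 2.22 and 2.38 in the IGF2BP2 lists, where it was 1.74 and 1.90. RNA28SN5 had 6 of 176 sites higher in PTBP1 and 145 in IGF2BP2 on the common scale, and 19 and 5 with the deposited log2. LOC100507412 changed its order too, with 8 and 323 of 372 on the common scale and 35 and 17 with the deposited log2. COL18A1, on the same chromosome, had 19 and 1 of 321 on the common scale and 175 and 0 with the deposited log2. Over all 2179 sites tested on chromosome 21, 158 were higher in PTBP1 and 639 in IGF2BP2 on the common scale, and 831 and 27 with the deposited log2.

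Outside chromosome 21 the direction held on both scales. There 1 of 64 sites of this list was higher in PTBP1 and 57 in IGF2BP2, and 3 and 49 with the deposited log2. All 36 tested sites of RNU1-1 were higher in IGF2BP2 on either scale, with a median score of -3.41 and -3.89 with PTBP1 and 2.13 and 2.24 with IGF2BP2. RN7SL2, the RNA of the signal recognition particle, scored -6.00 and -5.82 with PTBP1 and -3.70 and -3.59 with IGF2BP2 on the common scale. These were the lowest of the named genes in all 4 libraries. The gene lies on chromosome 14, whose constant was 2.53 and 2.75 in the PTBP1 lists and 3.81 and 3.92 in the IGF2BP2 lists. These are above the common constants, so the common scale lowered its scores in every library. RN7SL2 had 0 of 12 higher in PTBP1 and 10 in IGF2BP2, and 0 and 4 with the deposited log2. RN7SK, the RNA that holds the elongation factor P-TEFb, had a median score of -1.83 and -1.86 with PTBP1 and -1.87 and -1.76 with IGF2BP2.

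Of the 10 named sites most unlike between the proteins 8 lay in introns, which held 65.6% of all sites. On the PTBP1 side an 81-nt intron site of CUX1, a homeobox gene (chr7:101859971-101860051, plus strand), scored 4.11 and 4.56 with PTBP1 and -2.02 and -3.29 with IGF2BP2, a difference of 7.58 ± 0.55 (limma, adjusted p = 0.0018). A coding-sequence site of HSP90B1, the HSP90 of the endoplasmic reticulum (chr12:103946891-103946941, plus strand), scored 8.26 and 6.31 with PTBP1 and -0.76 and 1.37 with IGF2BP2. Intron sites of TLK1, UBXN7 and NAA38 followed with differences of 6.98, 6.87 and 6.84. At each of these sites both PTBP1 scores were above both IGF2BP2 scores.

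On the IGF2BP2 side an intron site of FAM120B (chr6:170377485-170377525, plus strand) scored -3.95 and -3.40 with PTBP1 and 5.01 and 5.11 with IGF2BP2, a difference of -8.14 ± 0.42 (limma, adjusted p = 0.0014). Intron sites of ZBTB46, GRPEL2-AS1 and MYHAS followed with -7.48, -6.95 and -6.79. The fifth was a 3′ UTR site of PRNP, the prion protein gene (chr20:4700508-4700530, plus strand), with -1.20 and -0.74 with PTBP1 and 6.42 and 6.39 with IGF2BP2. At each of these 5 sites both IGF2BP2 scores were above both PTBP1 scores. Reads behind most of these scores were not recovered; the deposited −log10 p of most was 0 or stood at its limit of 400. The sites of NAA38, ZBTB46 and GRPEL2-AS1 were mirrored on the opposite strand.

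**Figure D5:**
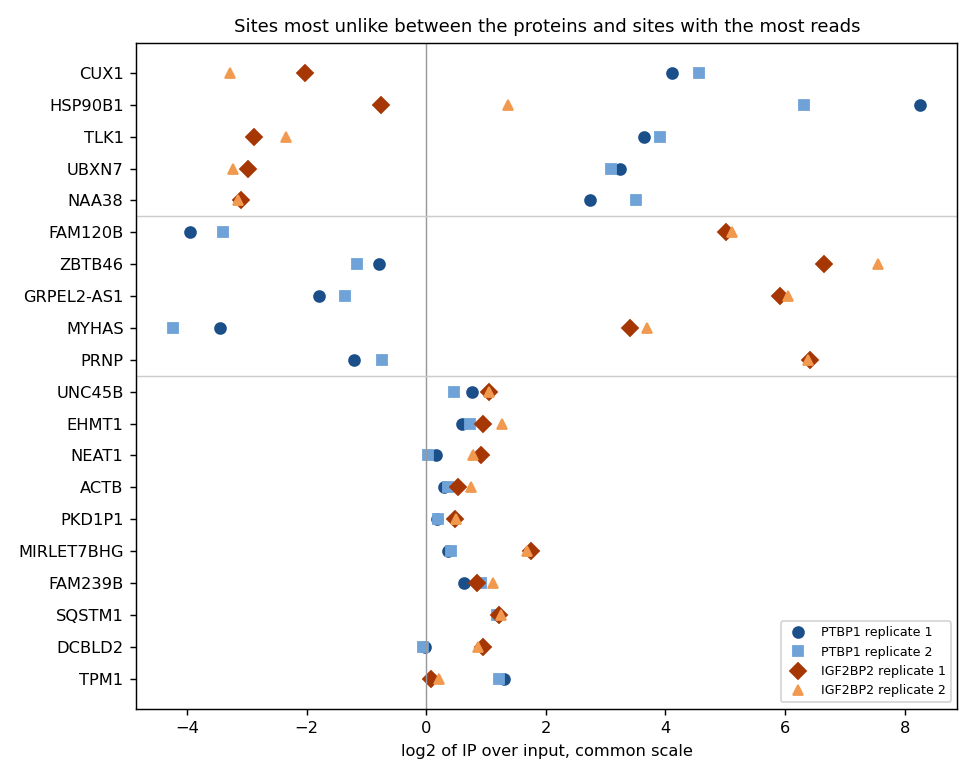
Score in each library (x axis, log2 of IP over input, common scale) for the 5 sites with the largest difference in each direction and the 10 sites with the most reads, 1 site per gene. The upper 2 blocks show no overlap of the proteins, and in the lowest block all scores lie between -0.05 and 1.75.

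By gene, 2234 of the 9023 genes with a tested site had at least 1 site higher in PTBP1, 3162 at least 1 higher in IGF2BP2 and 746 both. In 4373 genes none passed. The order is the reverse of that of the sites themselves (7754 and 7362). A gene with more sites can more easily hold 1 that passed. The same count was not made over all peaks tested or without centring, which moved the site counts.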

How the data were processed

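The authors deposited 1 peak list per IP library, giving position, strand, a log2 value, a −log10 p and an annotation of gene and transcript region. Reads were aligned with HISAT2 to hg38, per the submitters' processing notes; the peak caller and annotation were not given in the sources used here. From the values, the deposited log2 of a peak was that of IP over input reads, shifted by a constant that each chromosome of a library had of its own. Each constant was found from the commonest value, taken as 3 IP reads to 1 input read, and was replaced by the median constant of the library (the common scale). IP and input read numbers were recovered where the deposited −log10 p, above 0 and below 400, was met within 1% by a test on whole reads. The test was a chi-square with continuity correction or, for few reads, an exact test. This held for 98.6%, 98.4%, 99.6% and 99.6% of eligible peaks in PTBP1 replicates 1 and 2 and IGF2BP2 replicates 1 and 2. Eligible peaks also had a deposited log2 of at least 0. Repeated lines were removed (55, 36, 3 and 3). The input libraries as such were not analysed here.

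Score differences, PTBP1 minus IGF2BP2, were tested two-sided with limma 3.58.1 in R 4.3.3 (trend on the mean, Benjamini-Hochberg at 0.05) on all peaks with at least 3 scores. On simulated data with 200 changed peaks of 135764 it recovered 3% of changes of 1.5 and 55% of changes of 3 on the log2 scale. In the data 13208 and 12289 peaks passed. The adjustment was thus stricter in the simulation, and its rates do not describe the test on the data. Shares were compared over the 4 lists with an exact permutation test. Python 3.11.15, numpy 2.4.6, scipy 1.17.1 and pandas 2.3.3 were used. Named genes were the 10 with the most sites, with the highest share among genes of at least 30 peaks and with the most sites enriched in all 4 lists; named sites were the 10 with the most reads and the 5 with the largest difference each way, 1 per gene; each gene list has up to 4 examples, those with the most sites. Some genes that these rules name are not reported here. Hairpins and gene starts shown, and NEAT1, RN7SK, MAP1B and TRAM2 where they stand outside these rules, were picked after their values were seen. The members and lists were chosen with earlier results of these data known. Alternatives changed the overlap, the enrichment and read minimums, the scale, centring and trend, the replicate block, mirrored peaks and the libraries used.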

Additional observations from a re-analysis of the deposited data

How the results depend on the processing

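With enriched peaks only there were 204 sites in 109 genes, and with peaks of at least 10 recovered IP reads 10357 sites in 2195 genes. An overlap of at least 10 nt left 54931 sites, and leaving out 1 library gave 73763 to 95431 sites in 9858 to 10668 genes. At 10 reads the shares of sites minus other peaks turned to -0.71 points in 3′ UTRs, -2.40 in coding sequence and 1.48 in introns, while peaks with recovered reads of any number gave 2.57, 3.61 and -7.26; without 1 library each they were 2.09 to 2.48, 4.48 to 5.55 and -9.06 to -8.59. Without centring 5100 sites were higher in PTBP1, 14887 in IGF2BP2 and 51.3% of 3′ UTR sites in IGF2BP2. At 10 reads the counts were 1885 and 1796, with 19.1% of coding-sequence sites higher in PTBP1. Leaving out 1 library gave 4710 to 6533 sites higher in PTBP1, 3258 to 7696 higher in IGF2BP2, 23.9 to 30.8% of coding-sequence sites higher in PTBP1 and 15.1 to 32.0% of 3′ UTR sites higher in IGF2BP2. The cause of these changes was not tested, beyond fewer libraries or peaks in the fit. With the replicate number as a block 6893 sites were higher in PTBP1 and 6642 in IGF2BP2; the numbers were not shown to pair the libraries (r = -0.0025 between the proteins' deviations over 64106 sites). A trend on read number, chosen after seeing the data, gave 8009 and 7384. The 10 sites named for their difference kept direction and call under every alternative that they entered. None of them entered the one with at least 10 recovered IP reads, as too few of their reads were recovered. Of the counts for gene lists, 236 stayed within 1.5 times and 76 did not. A median of 4 IP reads per IGF2BP2 peak limits the precision of its scores.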
